A study of Mus musculus with 30 samples.

Results

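T, Sox2, Nkx1-2, Tbx6 and Msgn1 are transcription factor genes that stand at the choice between spinal cord and mesoderm in the tail end of the embryo. These 5 genes were taken from the 54134 rows of the count table by name and not by a cutoff on their values, though earlier results of these data were known. Of the 5, 4 had enough counts to be tested among 12149 genes, and Msgn1 did not.

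RNA was measured in 30 libraries of mouse Bruce4 embryonic stem cells (ESCs) that were taken towards neuromesodermal progenitors (NMPs), with 3 replicates in each of 10 groups (5 stages by 2 genotypes). All cells were cultured with FGF2. At d2 no other factor had been added. CHIR99021, which activates Wnt signalling by blocking GSK3, was present from d2 on, so that d2.5 and d3 cells had received it for 12 h and 24 h. No library came from cells kept without it after d2, so CHIR99021 and further time in culture cannot be told apart. At d4 the cells had received FGF2 and CHIR99021 for a further 24 h, either alone or with Gdf11, a TGFβ family ligand of the tailbud (d4G). Cells were either wildtype or Nr6a1-/-. The latter were 1 clone (B1) with CRISPR/Cas9 deletions in exon 4 of both alleles, which remove the DNA-binding domain of this orphan nuclear receptor, so that genotype and cell line cannot be told apart.

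NMPs hold T and Sox2 together, and Nkx1-2 is a homeobox gene of the same progenitor zone. T (Brachyury) is a T-box factor that Wnt signalling maintains, and Sox2 is an SRY-box factor that pluripotent cells and neural progenitors share. Cells that enter the presomitic mesoderm turn on Tbx6, a T-box factor known to repress Sox2 there, and Msgn1, a basic helix-loop-helix factor, while cells that become neural keep Sox2 and lose T.

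Library totals ranged from 1570714 to 3688197 counts, and levels are given as CPM, counts scaled to library size with TMM factors. Reads came from the 3′ ends of transcripts, so levels were compared between libraries and not between genes. Nr6a1 counts do not check the genotype labels, since the deletions lie in an internal exon (group means of 18.0 to 177 CPM in wildtype and 28.6 to 287 CPM in Nr6a1-/- cells). Replicate 2 of d4 wildtype stood apart. The 7 epiblast markers (Pou5f1, Nanog, Utf1, Fgf5, Otx2, Dnmt3b and Zfp42) summed to 654 CPM there against 100.7 and 92.8 CPM in replicates 1 and 3, while in d2 wildtype cells they summed to 2365 to 2409 CPM. Replicate 1 of d4 Nr6a1-/- also differed most from its own replicates (chi-square per gene of 5.64 and 6.68, against 2.58 between replicates 2 and 3) and had the lowest TMM factor, 0.909, but without it no call of T, Sox2, Nkx1-2 or Tbx6 changed. The labels give all 6 d4 libraries a sample index that another library carries as well. These are the d4G library of the same number for the 3 wildtype libraries and for replicate 1 of Nr6a1-/-, and the d3 library of the same number for replicates 2 and 3 of Nr6a1-/-. Samples were pooled after this index was added, so libraries that share one were amplified in different pools. The pool of each library is not given in the sources used here, and in the steps from d3 to d4 and from d4 to d4G pool and stage cannot be told apart. Markers of endoderm and other cells also differed between genotypes, as described with the marker lists. In bulk RNA, fewer cells of a type and less RNA per cell cannot be told apart, which holds for every level below.

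In GRCm38 (GENCODE release M21), T lies on chromosome 17 from 8434423 to 8442496 (plus strand) and Sox2 on chromosome 3 from 34650405 to 34652461 (plus strand). Nkx1-2 (132594878 to 132599637, minus strand) and Tbx6 (126781483 to 126785560, plus strand) are both on chromosome 7, and Msgn1 is on chromosome 12 from 11208360 to 11208972 (minus strand). Sox2 sits inside the long noncoding gene Sox2ot on the same strand, which had 67 counts over all 30 libraries. Nkx1-2 sits inside the annotated span of Fgfr2 on the same strand (225 counts), and an antisense gene, Gm16764, had 0 counts. Whether counting used the strand, and how it treated reads shared by overlapping genes, is not given in the sources used here. The few counts of these neighbours cannot show whether reads of Sox2 or Nkx1-2 were lost.

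Because Wnt signalling acts through TCF/LEF factors and the deleted gene encodes a nuclear receptor, the promoters of the 5 genes were searched for the letters TCAAAG or ACAAAG (TCF/LEF), AGGTCA (a single nuclear receptor motif) and GGTGTG (T-box), on both strands. Each window ran from 250 bases before to 50 after a RefSeq start site (GRCm38.p6), from which match positions are counted. The RefSeq start of Sox2, 34649995, lies 410 bases from the GENCODE start given above and that of Msgn1, 11208948, lies 24 bases from it, while the starts of T, Nkx1-2 and Tbx6 are the same in both. All 5 genes were matched, and 32851 windows of 27025 genes served as the background. TCF/LEF letters were found in 31.2% of all windows, and 1.14% of windows held 3 or more matches. The Msgn1 window held 3, the T and Sox2 windows held 1 each and those of Nkx1-2 and Tbx6 held 0. AGGTCA was found in 16.3% of all windows and, among the 5 genes, in that of Sox2 alone. GGTGTG was found in 19.0% of windows and in 0 of the 5. The matches are printed here because they place the letters relative to the start sites of these genes. Capitals mark the match, the flanks are at most 12 bases, and each sequence is written 5′ to 3′ on the strand of its gene.
Msgn1, chr12:11209133-11209162 (minus strand, match starting at -202): agatgctaattaTCAAAGaggggaaagtga
Msgn1, chr12:11209074-11209103 (minus strand, match starting at -143): ccttggttcttcCTTTGAactccctccacc
Msgn1, chr12:11209039-11209068 (minus strand, match starting at -108): ccccctttcccaCTTTGTccccgatccccc
T, chr17:8434177-8434206 (plus strand, match starting at -234): ctgctcggtactTCAAAGggtgtcccgccc
Sox2, chr3:34649777-34649806 (plus strand, match starting at -206): ggggggggggatACAAAGgttccccagcgg
Sox2, AGGTCA on the opposite strand, chr3:34649745-34649768 (plus strand, match starting at -244): gcgccgTGACCTgttgctgaaaac
A match describes these letters only, and a window without one says nothing about the binding of a factor elsewhere. The direct repeat AGGTCAAGGTCA was found in 2 of all windows and in 0 of the 5.

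To follow the entry into and exit from the progenitor state, T was examined first. T was nearly silent before Wnt activation, peaked at d3 and then fell, and Nr6a1-/- cells reached a higher peak. At d2 the wildtype replicates stood at 2.62, 5.84 and 5.16 CPM and the Nr6a1-/- replicates at 2.35, 2.996 and 3.03 CPM. With 12 h of CHIR99021 they stood at 202, 179 and 192 CPM in wildtype and at 232, 239 and 209 CPM in Nr6a1-/- cells. The groups overlapped at d2, whereas at d2.5 every Nr6a1-/- library lay above every wildtype library. The rise was 5.38 on the log2 scale in wildtype (SE 0.168, FDR = 9.28e-24) and 6.30 in Nr6a1-/- cells (SE 0.176, FDR = 6.23e-26). FDR here and in what follows is that of the quasi-likelihood test in edgeR, adjusted by Benjamini-Hochberg across 12149 genes, and genes below 0.05 were called.

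**Figure D1:**
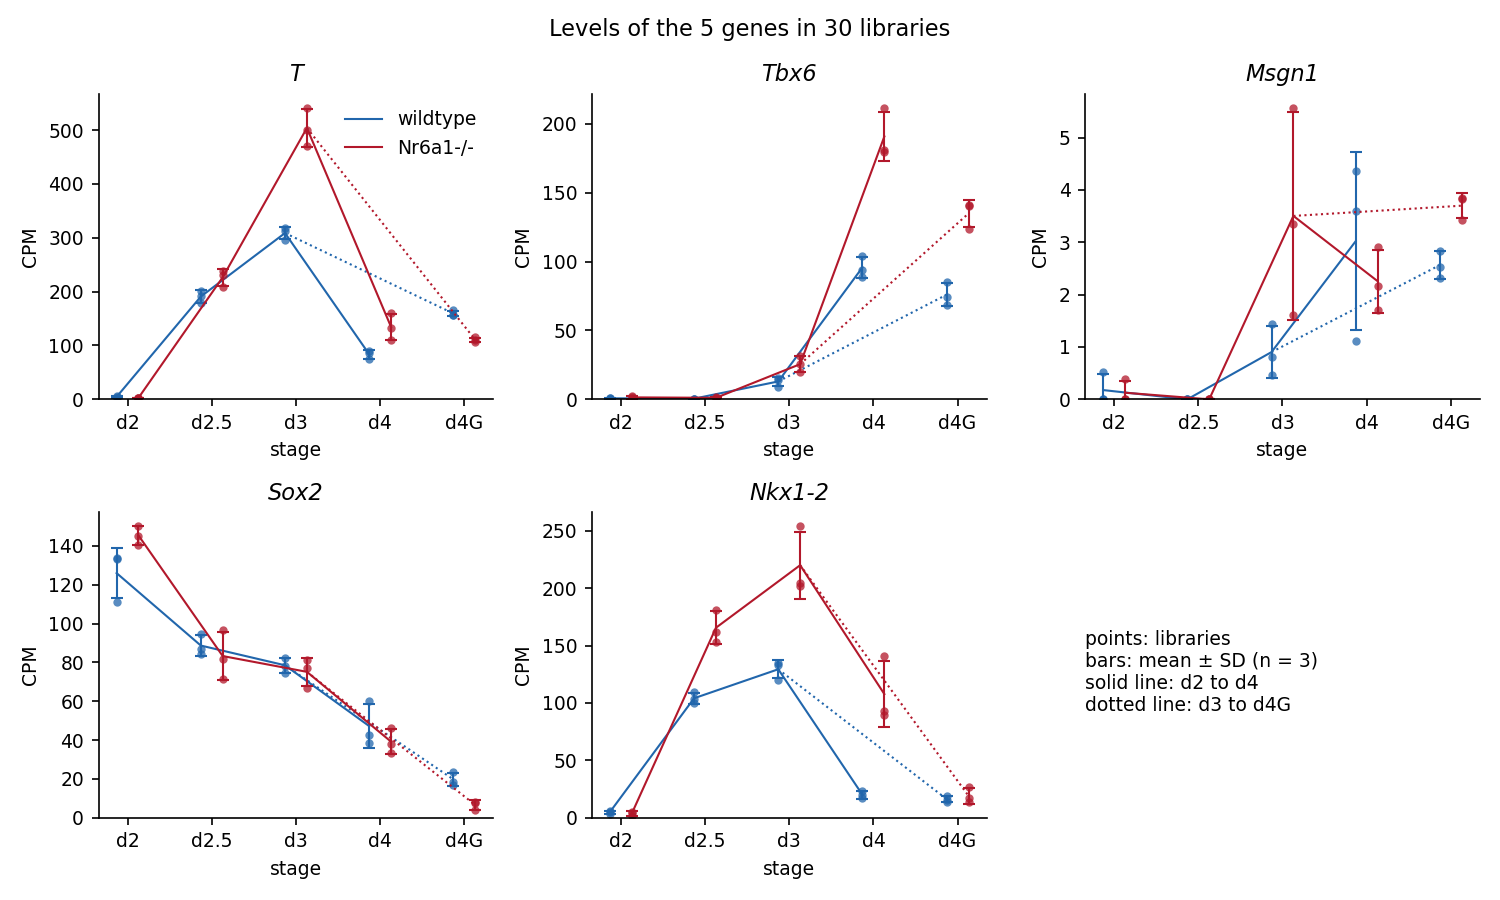
Level in CPM (linear axis) of each of the 5 genes by stage, with points for libraries and bars for the mean ± SD of 3 replicates, wildtype in blue and Nr6a1-/- in red. T and Nkx1-2 peaked at d3 in both genotypes, Tbx6 at d4, and Sox2 was highest at d2 and lowest with Gdf11.

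At d3 T stood at 318, 312 and 296 CPM in wildtype and 471, 500.3 and 541 CPM in Nr6a1-/- cells. By d4 it had dropped to 90.2, 74.3 and 86.5 CPM in wildtype and to 132, 111 and 159.8 CPM in Nr6a1-/- cells. The genotypes did not overlap at either stage. The step from d2.5 to d3 was 0.69 in wildtype (SE 0.0990, FDR = 3.72e-06) and 1.15 in Nr6a1-/- cells (SE 0.0954, FDR = 1.19e-11). The difference between these steps was 0.46 and missed the threshold (SE 0.137, FDR = 0.0981), although it passed when only the libraries compared were fitted (0.46, FDR = 0.0345). From d3 to d4 T fell by 1.89 in wildtype (SE 0.103, FDR = 1.64e-16) and by 1.91 in Nr6a1-/- cells (SE 0.1003, FDR = 3.18e-17). The difference between those falls was -0.016 (95% interval -0.32 to 0.29).

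Gdf11 moved T differently in the genotypes. With it T stood at 156, 157 and 165 CPM in wildtype, above every d4 wildtype library, and at 115, 109.5 and 107 CPM in Nr6a1-/- cells, which overlapped with d4. In wildtype T rose by 0.94 (SE 0.105, FDR = 1.25e-08). The change in Nr6a1-/- cells was -0.28 (SE 0.108, FDR = 0.0622), and it passed the threshold only without replicate 2 of d4 Nr6a1-/- (-0.39, FDR = 0.00905). This difference in response was itself significant (-1.22, SE 0.151, FDR = 1.54e-06). In the order of group means, d3 Nr6a1-/-, d3 wildtype, d2.5 Nr6a1-/- and d2.5 wildtype were each apart from the group that followed. The ranges of d4G wildtype, d4 Nr6a1-/- and d4G Nr6a1-/- overlapped between neighbours, d4 wildtype lay below them, and the d2 groups were lowest and overlapped.

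Tbx6, the presomitic gene with enough counts to test, came on 1 stage later than T and stayed on. Before d3 it was at 0.437 to 2.28 CPM, or 1 to 6 counts per library. At d3 it stood at 15.4, 14.3 and 9.20 CPM in wildtype and 19.7, 25.7 and 31.2 CPM in Nr6a1-/- cells. The d3 groups did not overlap. Since d2.5 wildtype held only 3 counts in all, the rise is given as a ratio of pooled counts, 25.7 in wildtype (95% counting interval 8.50 to 127, 86 against 3 counts) and 23.6 in Nr6a1-/- cells (12.2 to 52.3, 193 against 9 counts). Counting intervals cover counting error only.

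At d4 Tbx6 stood at 94.2, 89.0 and 104 CPM in wildtype and at 179.8, 211 and 181 CPM in Nr6a1-/- cells. Gdf11-treated libraries stood at 68.4, 84.9 and 74.6 CPM in wildtype and at 141, 124 and 140.3 CPM in Nr6a1-/- cells. Every Nr6a1-/- library lay above every wildtype library at both. The rise from d3 to d4 was 2.90 in wildtype (SE 0.161, FDR = 2.33e-16) and 2.89 in Nr6a1-/- cells (SE 0.136, FDR = 1.51e-18), and their difference was -0.0065 (95% interval -0.35 to 0.33). Under Gdf11, Tbx6 fell by 0.49 in Nr6a1-/- cells (SE 0.114, FDR = 0.00168). In wildtype the change was -0.33 (SE 0.122, FDR = 0.0376), a call that was lost in 8 of 14 alternatives, among them without replicate 1 or 3 of d4 wildtype (FDR = 0.0591 and 0.14) and without replicate 1 or 3 of d4G wildtype (FDR = 0.162 and 0.106). The order of levels was d4 Nr6a1-/-, d4G Nr6a1-/-, d4 wildtype, d4G wildtype, d3 Nr6a1-/- and d3 wildtype, each apart from the next, and the d2 and d2.5 groups overlapped below them.

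Msgn1 was barely detected. It had 1 count in all over the d2 wildtype libraries, 1 over d2 Nr6a1-/- and 0 in all 6 libraries of d2.5, where a count of 0 over the 3 libraries of a genotype allows up to 3 counts. At d3 the wildtype replicates held 3, 1 and 2 counts (1.45, 0.460 and 0.800 CPM) and the Nr6a1-/- replicates 4, 13 and 9 counts (1.61, 5.56 and 3.35 CPM). The d3 groups did not overlap. Over the group Nr6a1-/- cells held 26 counts and wildtype cells 6, a ratio of 3.89 (95% counting interval 1.56 to 11.5). An exact permutation test of the 3 against 3 levels gave p = 0.1 (2-sided), the smallest value it can give. Against the 0 counts of d2.5, the ratio at d3 had a lower 95% counting limit of 7.21 in Nr6a1-/- cells and 1.06 in wildtype.

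At d4 Msgn1 had 10, 4 and 12 counts in wildtype and 5, 6 and 4 counts in Nr6a1-/- cells, which overlapped in CPM. With Gdf11 it had 5, 7 and 6 counts in wildtype and 8, 6 and 8 counts in Nr6a1-/- cells, which did not overlap in CPM. The ratios were 0.793 at d4 (0.391 to 1.55, exact permutation p = 0.5) and 1.43 at d4G (0.731 to 2.82, exact permutation p = 0.1, again the smallest the test can give), and both counting intervals included 1. From d3 to d4 the ratio was 3.16 in wildtype (1.27 to 9.39) and 0.645 in Nr6a1-/- cells (0.318 to 1.26). When the filter was applied over any 2 libraries, a setting chosen after seeing the data, Msgn1 could be fitted and the d3 difference was 1.90 (SE 0.626, FDR = 0.0465). Without a filter it was 1.93 (FDR = 0.0753). In the order of levels the first 5 groups, from d4G Nr6a1-/- to d4 Nr6a1-/-, overlapped with their neighbours, and d3 wildtype and the earlier groups lay below.

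Sox2 was highest at d2 and lower at each later stage, and no difference between genotypes was called before Gdf11. At d2 it stood at 111, 134 and 133 CPM in wildtype and at 150.2, 145 and 141 CPM in Nr6a1-/- cells. At d2.5 it stood at 87.2, 84.3 and 94.6 CPM in wildtype and 71.7, 96.6 and 81.6 CPM in Nr6a1-/- cells. At d3 the values were 74.8, 82.4 and 78.4 CPM in wildtype and 67.1, 77.4 and 81.1 CPM in Nr6a1-/- cells. The genotypes overlapped at d2.5 and d3. At d2 they did not, but the difference of 0.21 missed the threshold (FDR = 0.443). Over the first 12 h of CHIR99021 Sox2 fell by 0.51 in wildtype (SE 0.132, FDR = 0.00402) and by 0.80 in Nr6a1-/- cells (SE 0.128, FDR = 8.69e-06). The next 12 h gave -0.18 (FDR = 0.476) and -0.15 (FDR = 0.517), neither past the threshold.

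At d4 Sox2 stood at 42.7, 60.2 and 38.7 CPM in wildtype and at 33.4, 38.2 and 46.0 CPM in Nr6a1-/- cells. The highest of these libraries was replicate 2 of d4 wildtype, the one that also held epiblast transcripts. The difference between genotypes was -0.28 (SE 0.154, FDR = 0.219), and -0.063 without that library (FDR = 0.847). The fall from d3 was 0.72 in wildtype (log2 fold change -0.72, SE 0.141, FDR = 2.26e-04), or -0.94 without that library (FDR = 8.13e-06), and -0.94 in Nr6a1-/- cells (SE 0.1499, FDR = 7.86e-06).

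With Gdf11 Sox2 stood at 23.7, 17.1 and 18.6 CPM in wildtype and at 8.18, 3.82 and 7.72 CPM (17, 6 and 18 counts) in Nr6a1-/- cells. Every Nr6a1-/- library lay below every wildtype library, and the wildtype level was 2.86-fold higher (log2 fold change -1.52, SE 0.261, FDR = 7.82e-05). The change of Sox2 with Gdf11 was -1.27 in wildtype (SE 0.172, FDR = 4.50e-07) and -2.51 in Nr6a1-/- cells (SE 0.233, FDR = 1.09e-10). The difference in response was -1.24 (SE 0.308, FDR = 0.0172). It rested on single libraries, being -1.10 without replicate 3 of d4 Nr6a1-/- (FDR = 0.0630), -1.09 without replicate 1 of d4G wildtype (FDR = 0.0670) and -1.02 without replicate 2 of d4G Nr6a1-/- (FDR = 0.0823). Without replicate 2 of d4 wildtype it was -1.46 (FDR = 0.00149). In the order of levels the d2 groups led, d2.5 and d3 groups overlapped with their neighbours, the d4 groups overlapped with each other, and d4G wildtype and d4G Nr6a1-/- were apart at the bottom.

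Nkx1-2 showed the largest difference between genotypes of the 4 genes tested, at d4. It rose and fell with T in wildtype but remained on in Nr6a1-/- cells at d4. At d2 it stood at 6.12, 5.31 and 3.44 CPM in wildtype and 4.24, 5.24 and 1.52 CPM in Nr6a1-/- cells. With 12 h of CHIR99021 it reached 103, 109 and 99.7 CPM in wildtype and 153, 181 and 162 CPM in Nr6a1-/- cells. The groups overlapped at d2 and were apart at d2.5 (log2 fold change 0.67, SE 0.146, FDR = 0.00276). The rise was 4.42 in wildtype (SE 0.242, FDR = 8.91e-17) and 5.49 in Nr6a1-/- cells (SE 0.237, FDR = 3.85e-20), and the difference between the rises, 1.07, missed the threshold (SE 0.463, FDR = 0.323).

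At d3 Nkx1-2 stood at 133, 134 and 120.4 CPM in wildtype and at 204, 202 and 254 CPM in Nr6a1-/- cells. At d4 it stood at 23.5, 16.9 and 19.8 CPM in wildtype and at 89.2, 93.4 and 141 CPM in Nr6a1-/- cells. The d3 and d4 groups did not overlap between genotypes, and the d4 level was 5.46-fold higher in Nr6a1-/- cells (log2 fold change 2.45, SE 0.178, FDR = 2.48e-13). From d3 to d4 it fell by 2.71 in wildtype (log2 fold change -2.71, SE 0.176, FDR = 1.63e-14) and by 1.03 in Nr6a1-/- cells (-1.03, SE 0.143, FDR = 6.80e-07), a difference of 1.68 (SE 0.229, FDR = 4.72e-06). The step from d2.5 to d3 was 0.31 in wildtype (FDR = 0.193) and 0.41 in Nr6a1-/- cells (FDR = 0.0345), the latter lost in 5 of 14 alternatives, among them without replicate 3 of d3 Nr6a1-/- (0.30, FDR = 0.187) and without replicate 1 or 3 of d2.5 Nr6a1-/- (FDR = 0.114 and 0.0860).

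At d4G the difference in Nkx1-2 was not called. There the wildtype replicates stood at 15.8, 19.1 and 13.9 CPM and the Nr6a1-/- replicates at 17.3, 13.4 and 26.6 CPM, which overlapped (log2 fold change 0.27, SE 0.248, FDR = 0.633). Nkx1-2 fell by 2.45 in Nr6a1-/- cells (log2 fold change -2.45, SE 0.192, FDR = 1.44e-12), while in wildtype the change was -0.27 (SE 0.231, FDR = 0.406). This difference in response was -2.18 (SE 0.310, FDR = 1.53e-05). The d3 Nr6a1-/- group was highest, then d2.5 Nr6a1-/-. The ranges of d3 wildtype, d4 Nr6a1-/- and d2.5 wildtype overlapped between neighbours, as did those of d4 wildtype and both d4G groups below them, and the d2 groups were lowest.

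**Figure D2:**
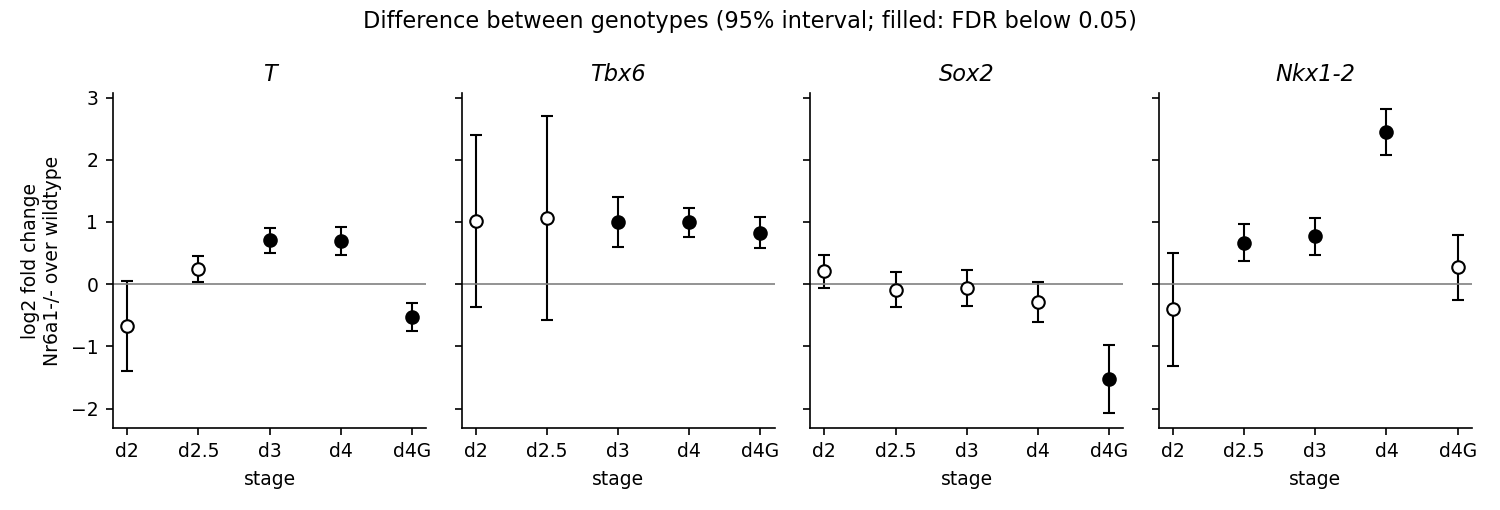
Log2 fold change of Nr6a1-/- over wildtype (y axis) at each stage (x axis) for the 4 genes tested, with 95% intervals from the fit and filled points where the FDR was below 0.05. Tbx6 was higher in Nr6a1-/- cells from d3 on, Nkx1-2 from d2.5 to d4 with its largest difference of 2.45 at d4, T was higher at d3 and d4 and lower at d4G, and Sox2 was lower at d4G.

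Set side by side, the genotype differences changed with the stage. At d2, 0 of the 4 genes passed the threshold, where 4.07% of all tested genes did (1.35% higher and 2.72% lower in Nr6a1-/- cells). Of the genes called at d2, 33.2% were higher, or 44.0% when libraries were scaled without factors. The lowest unadjusted p of the 4 at d2 was 0.0902, for T. At d2.5 Nkx1-2 alone was called, where 6.45% of all genes were (2.86% higher, 3.59% lower), and T was at 0.25 (FDR = 0.144). At d3, 3 of 4 were higher, against 10.8% of all genes called (4.47% higher, 6.3% lower). These were T (0.71, SE 0.0945, FDR = 1.37e-06), Nkx1-2 (0.77, SE 0.141, FDR = 2.15e-04) and Tbx6 (1.00, SE 0.193, FDR = 4.30e-04). The value for Sox2 at d3 was -0.063, with a 95% interval of -0.35 to 0.22.

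The same 3 genes were higher at d4, where 18.9% of all genes were called (9.7% higher, 9.18% lower). There T was at 0.69 (SE 0.107, FDR = 6.15e-06) and Tbx6 at 0.99 (SE 0.114, FDR = 1.87e-08), besides Nkx1-2. At d4G 1 was higher and 2 were lower, against 7.9% of all genes called (3.28% higher, 4.63% lower). Tbx6 was higher (0.83, SE 0.122, FDR = 6.57e-06), and T (-0.53, SE 0.107, FDR = 6.60e-04) and Sox2 were lower. Tbx6 and Msgn1 were among the genes that the study itself examined in the d3 libraries, so their choice is not independent of those values.

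Over time the genes moved with large parts of the transcriptome. From d2 to d2.5, T and Nkx1-2 rose and Sox2 fell in both genotypes, steps in which 25.4% of all genes were called in wildtype (13.3% higher, 12.1% lower) and 24.1% in Nr6a1-/- cells (12.9% higher, 11.2% lower). From d2.5 to d3, T and Tbx6 rose in wildtype, where 11.5% of all genes were called (5.91% higher, 5.56% lower). In Nr6a1-/- cells T, Tbx6 and Nkx1-2 rose, against 15.9% of all genes called (7.43% higher, 8.45% lower). From d3 to d4, Tbx6 rose while T, Sox2 and Nkx1-2 fell in both, against 21.1% called in wildtype (9.77% higher, 11.3% lower) and 25.9% in Nr6a1-/- cells (13.6% higher, 12.3% lower). Gdf11 raised T and lowered Sox2 and Tbx6 in wildtype, where 28.8% were called (14.3% higher, 14.5% lower), and lowered Sox2, Nkx1-2 and Tbx6 in Nr6a1-/- cells, where 18% were (8.45% higher, 9.59% lower).

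Tests of the difference between genotypes in a step called far fewer genes overall. For d2 to d2.5 and d2.5 to d3, 0.609% and 0.815% of all genes were called, and 0 of the 4. In the first of these steps T and Nkx1-2 were at 0.92 (unadjusted p = 0.0219) and 1.07 (unadjusted p = 0.0266). In the second T was at 0.46 (unadjusted p = 0.00189). For d3 to d4, where 5.72% were called, Nkx1-2 was called higher. For the response to Gdf11, where 2.66% were called, T, Sox2 and Nkx1-2 were called lower and Tbx6 was not (-0.16, 95% interval -0.51 to 0.19). The responses to Gdf11 share the d4 libraries with the genotype comparison at d4, so that a high d4 value of Nkx1-2 in Nr6a1-/- cells enters both.

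**Figure D3:**
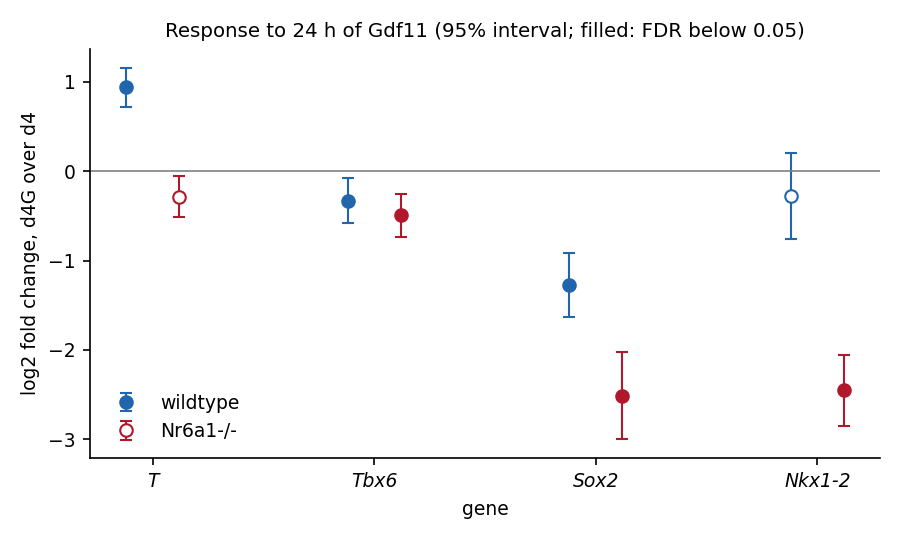
Log2 fold change of d4G over d4 (y axis) for the 4 genes tested, wildtype in blue and Nr6a1-/- in red, with 95% intervals and filled points where the FDR was below 0.05. T rose by 0.94 in wildtype and not in Nr6a1-/- cells, and Sox2 and Nkx1-2 fell further in Nr6a1-/- cells (-2.51 and -2.45).

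The balance of mesodermal against neural and progenitor genes was described in each library as the mean log2(CPM + 0.5) of T, Tbx6 and Msgn1 minus that of Sox2 and Nkx1-2. It is a description of chosen genes and was not tested. It was -4.07 ± 0.461 at d2 and -4.40 ± 0.0305 at d2.5 in wildtype, and -3.96 ± 0.812 and -4.38 ± 0.253 in Nr6a1-/- cells (SD, n = 3). By d3 it had risen to -2.22, -2.69 and -2.65 in the wildtype replicates and to -2.12, -1.55 and -1.83 in the Nr6a1-/- replicates. The d3 groups were apart, Nr6a1-/- cells being further towards the mesodermal genes by 0.69. That size depended on the genes and the scale, since it was 0.28 without Sox2, 1.10 without Nkx1-2 and 0.22 with summed CPM. The balance also includes Msgn1, which had too few counts to be tested, at 6 in wildtype and 26 in Nr6a1-/- cells at d3. At d2 and d2.5 Msgn1 held at most 1 count per group, so the added 0.5 largely set its term there.

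At d4 the balance stood at 0.11, -0.56 and 0.24 in wildtype and at -0.46, -0.48 and -1.02 in Nr6a1-/- cells. With Gdf11 it stood at 0.65, 0.94 and 1.02 in wildtype and at 1.74, 2.33 and 1.39 in Nr6a1-/- cells. The d4 groups overlapped, with a difference of -0.59 (-0.83 without replicate 2 of d4 wildtype), and the d4G groups were apart by 0.95. The d4 direction was set by Nkx1-2, since without it the difference was 0.73, while without Sox2 it was -1.90. At d4G it was carried by Sox2, since without that gene it was 0.072.

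**Figure D4:**
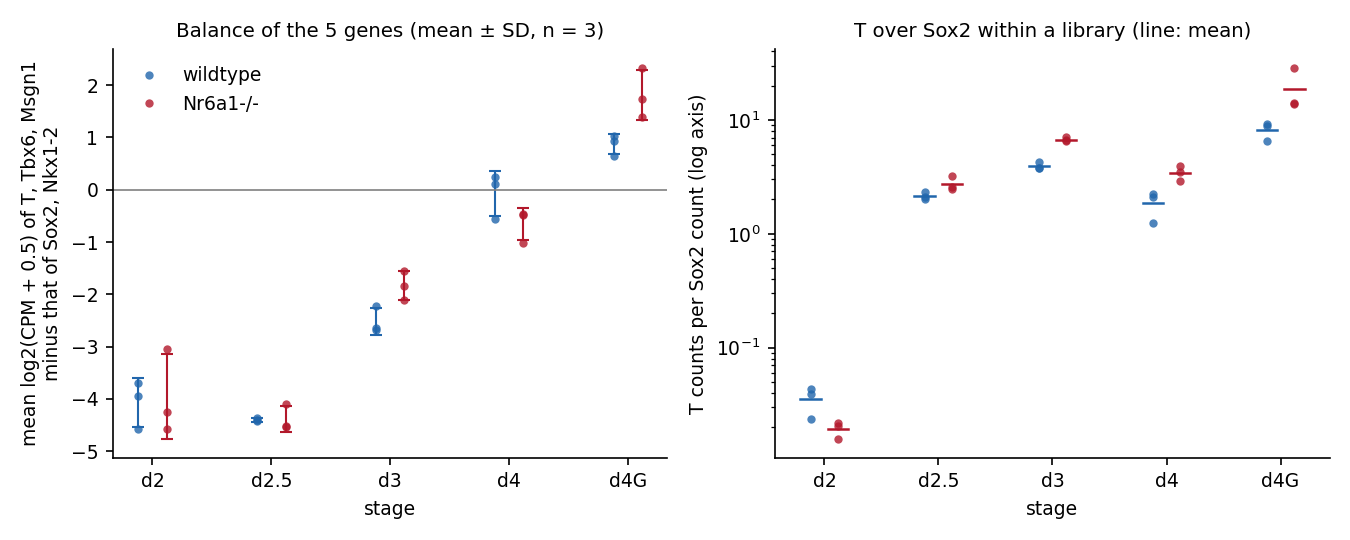
Left, balance of the 5 genes in log2 units by stage, with points for libraries and bars for mean ± SD (n = 3). Right, T counts per Sox2 count within each library on a log axis, with lines for the mean, wildtype in blue and Nr6a1-/- in red, where the mean ratio rose from 0.0353 or less at d2 to 8.23 in wildtype and 18.9 in Nr6a1-/- cells with Gdf11.

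Ratios of counts within a library, which need no scaling between libraries, showed which pairs shifted. T per Sox2 was 3.94 ± 0.270 in wildtype and 6.72 ± 0.280 in Nr6a1-/- cells at d3 (SD, n = 3). At d4 the ratios were 1.86 ± 0.545 and 3.44 ± 0.532, and with Gdf11 they were 8.23 ± 1.43 and 18.9 ± 8.50. The groups were apart at each of these stages, and at d4G a single Nr6a1-/- library with 6 Sox2 counts reached 28.7. Tbx6 per Sox2 rose from 0.166 ± 0.0450 and 0.337 ± 0.0462 at d3 to 2.12 ± 0.610 and 4.95 ± 0.884 at d4 and to 3.96 ± 1.05 and 22.6 ± 8.46 at d4G, in wildtype and Nr6a1-/- cells respectively.

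Nkx1-2 per Sox2 was 0.447 ± 0.147 in wildtype and 2.72 ± 0.309 in Nr6a1-/- cells at d4, with the groups apart. Tbx6 per T overlapped between genotypes at d3 (0.0418 ± 0.0094 and 0.0503 ± 0.00801) and at d4 (1.15 ± 0.0910 and 1.47 ± 0.398). At d4G it was 0.477 ± 0.0564 in wildtype and 1.22 ± 0.0927 in Nr6a1-/- cells, with the groups apart.

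Across the 10 group means of log2(CPM + 0.5), T was most like Nkx1-2 among the 5 (Pearson r = 0.880), and Tbx6 was most like Msgn1 (r = 0.942). Sox2 ran against Tbx6 (r = -0.77), while T and Sox2 were at -0.36. These values describe 10 groups that share stages and are given without a test. Over 9731 genes with at least 10 CPM in 1 group, the patterns nearest to T were those of Ebp (0.979), Derl1 (0.966) and Sp5 (0.965). Nearest to Nkx1-2 were Nme5 (0.960), Grsf1 (0.959) and Frem2 (0.952), and nearest to Sox2 were Svip (0.992), Klhl8 (0.990) and Zfp982 (0.987). Tbx6 was nearest to Cdk4 (0.990), Ifitm1 (0.989) and Plxna2 (0.983), and Msgn1 to Dll3 (0.976), Rftn1 (0.963) and Fbxl17 (0.962). Pearson r does not weigh the size of a change, and these genes are the highest of 9731. Group means of Cdk4 ran only from 407 to 556 CPM and those of Derl1 from 31.2 to 52.0 CPM, while those of Tbx6 ran from 0.497 to 191 CPM.

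To see whether other genes of the presomitic mesoderm and forming somites moved with Tbx6, 18 were listed, of which 17 were tested. This list, called presomitic for short, includes somite genes such as Aldh1a2 and Meox1. At d3, 5 were higher in Nr6a1-/- cells and 0 lower, where 4.47% of all genes were called higher and 6.3% lower (median log2 fold change of the 17 tested 0.55, against 0.0024 over all genes). Among d4 cells 11 were higher and 1 lower, against 9.7% and 9.18% of all genes (median 0.81 against 0.018), or 8 and 1 without replicate 2 of d4 wildtype. With Gdf11 the numbers were 6 and 0, against 3.28% and 4.63% of all genes (0.64 against 0.011). At d2 the counts were 0 higher and 2 lower (Pdgfra and Tcf15), against 1.35% and 2.72% of all genes. At d2.5 they were 1 higher (Snai1) and 2 lower (Pdgfra and Cited1), against 2.86% and 3.59%. Dll1, Dll3, Pcdh19 and Aldh1a2 were also among the genes that the study examined at d3, so these counts are not independent of that choice.

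Aldh1a2, which makes retinoic acid in forming somites, stood at 23.2 CPM in Nr6a1-/- against 9.19 CPM in wildtype cells at d3 and at 376 against 12.0 CPM at d4 (log2 fold change 4.96, SE 0.167, FDR = 1.22e-22). Meox1, a homeobox gene of somites, was at 201 against 4.05 CPM at d4 (5.67, SE 0.208, FDR = 3.60e-20). Both are known to act after the presomitic stage that Tbx6 and Msgn1 mark. The Notch ligand Dll1 stood at 218 against 125 CPM at d4 (0.81, SE 0.129, FDR = 9.31e-06), and Hes7, an oscillating repressor of the segmentation clock, at 53.5 against 31.0 CPM at d3 (0.79, SE 0.159, FDR = 7.05e-04). Dll3, a further Notch pathway member, was higher at d3 (0.69, FDR = 0.00301) and at 0.053 at d4 (FDR = 0.832). Cited1, a transcriptional co-regulator, went the other way at d4, from 633 CPM in wildtype to 369.9 CPM in Nr6a1-/- cells (-0.78, SE 0.102, FDR = 3.18e-07).

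**Figure D5:**
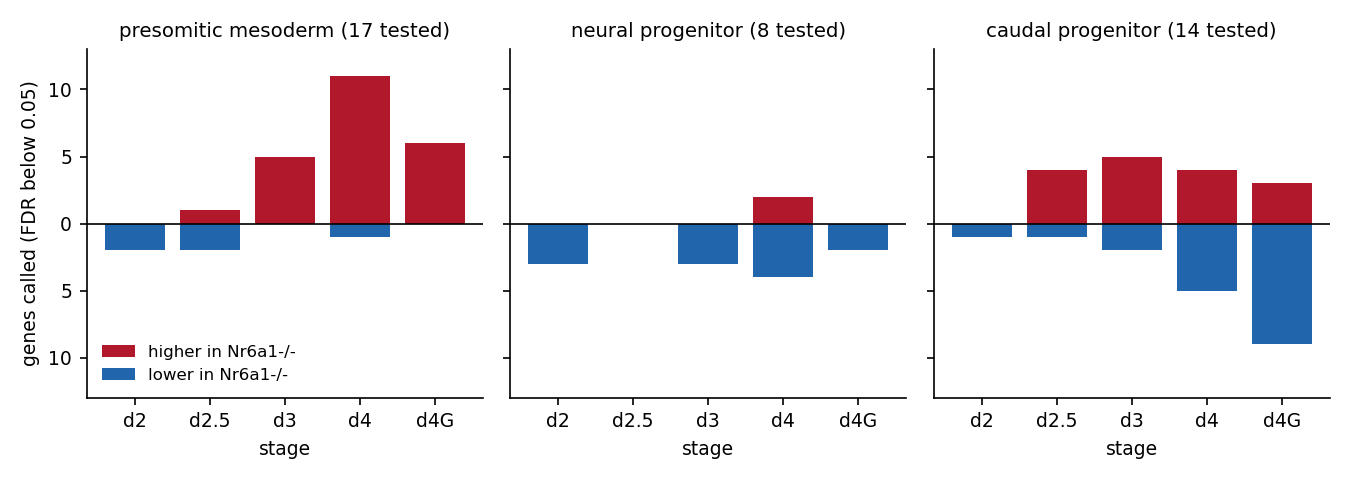
Number of listed genes called higher (above 0) or lower (below 0) in Nr6a1-/- than in wildtype cells at each stage. The lists are presomitic (with somite genes), neural and caudal progenitor markers. Called genes of the presomitic list were mostly higher at d3, d4 and d4G, and caudal genes were called in both directions, with 9 of 14 lower at d4G.

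Of 11 neural progenitor genes 8 were tested. In Nr6a1-/- cells 3 were lower at d2 (Sox1, Irx5 and Olig2), none at d2.5, 3 at d3 (Sox1, Irx5 and Irx3), 4 at d4 (these and Olig2) and 2 with Gdf11 (Irx5 and Irx3), while 2 were higher at d4. Over all genes tested, 2.72%, 3.59%, 6.3%, 9.18% and 4.63% were called lower at these 5 stages, and 9.7% higher at d4. Without replicate 2 of d4 wildtype, 2 were lower and 1 higher at d4. Of the 8 tested, the median log2 fold change was -0.76, -1.18, -0.89, -1.43 and -0.26 at these stages, beside all-gene medians of no more than 0.018 in size. Summed over all 11 genes the d4 level ran the other way, with wildtype libraries at 306 to 492 CPM, all below the Nr6a1-/- libraries at 679 to 813 CPM. Most of that sum was Ncam1, whose mean was 677 CPM in Nr6a1-/- against 296 CPM in wildtype cells. At d4 Irx3 stood at 0.912 CPM in Nr6a1-/- against 13.8 CPM in wildtype cells (-3.85, SE 0.416, FDR = 5.01e-09), Irx5 at 0.734 against 7.04 CPM (-3.14, SE 0.447, FDR = 1.39e-06), and Sox1, a neural relative of Sox2, at 0.448 against 1.87 CPM (-1.998, SE 0.704, FDR = 0.0429). These Nr6a1-/- means lay below the level of 3 counts in those libraries, 1.28 to 1.45 CPM. The study also named Sox1 among its neural markers, so its choice is not independent of that work. Sox1, Irx3 and Irx5 all lie on chromosome 8, whose 655 tested genes had medians of -0.38 to -0.29 in Nr6a1-/- cells, with 23.1% to 30.5% called lower. The part of the chromosome in these values was not tested. None of the 5 genes described above lies there. Foxc2, of the presomitic list, also lies on chromosome 8 but was called higher in Nr6a1-/- cells at d4. At d4 Hes5, a Notch target, was higher (0.64, FDR = 0.00700), as was the adhesion molecule Ncam1 (1.19, SE 0.208, FDR = 4.85e-05), while Pax6 (-0.86, FDR = 0.166) and Sox3 (-0.45, FDR = 0.556) were not called. Sox1 stood at 17.8 CPM in d2 wildtype cells and at most 3.79 CPM in the means of later groups.

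Caudal progenitor genes, all 14 of which were tested, ran in both directions. Of these, 0 were higher in Nr6a1-/- cells and 1 lower at d2, rising to 4 and 1 at d2.5 and to 5 and 2 at d3. The d4 cells had 4 higher and 5 lower, and 3 and 9 were higher and lower with Gdf11. Over all genes the shares called higher and lower were 9.7% and 9.18% at d4 and 3.28% and 4.63% with Gdf11. In d2.5 cells they were 2.86% and 3.59%, in d3 cells 4.47% and 6.3%, and before CHIR99021 1.35% and 2.72%. The list medians were -0.31, 0.040, 0.34, 0.043 and -0.73, and those of all genes were -0.0086, 0.0018, 0.0024, 0.018 and 0.011. Among those higher were the Wnt ligands Wnt3a, at 32.1 CPM in Nr6a1-/- against 5.77 CPM in wildtype cells at d4 (2.47, SE 0.256, FDR = 1.78e-09), and Wnt8a, at 15.7 against 0.675 CPM (4.49, SE 0.458, FDR = 1.29e-09). The homeobox gene Cdx1 was also higher at d4 (1.10, FDR = 1.02e-09), as was Sp5, a zinc finger target of Wnt signalling (0.60, FDR = 6.40e-06). In contrast Cdx4 was lower, at 51.3 against 129 CPM (-1.33, SE 0.109, FDR = 6.85e-12), and so was Fgf8, the growth factor of the progenitor zone, at 67.4 against 136 CPM (-1.005, SE 0.131, FDR = 2.85e-07). Both remained lower with Gdf11, Cdx4 by -1.71 and Fgf8 by -1.26.

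Markers of other cells moved with the genotype as well. The endoderm marker Sox17 was at 3.06 to 42.8 CPM over the wildtype libraries and at 0 to 5.32 CPM over the Nr6a1-/- libraries, and was called lower at all 5 stages, for example at d4 (-3.34, SE 0.358, FDR = 4.22e-09). Foxa2 was at 0.688 to 8.01 against 0 to 3.61 CPM and was called lower at d2.5, d4 and d4G, and Gata6 was at 2.03 to 11.2 against 0 to 3.003 CPM and was called lower at each stage but d3 (-1.48, FDR = 0.101). Cer1 was at 0 in every library. Of 6 lateral and blood mesoderm markers 2 were tested, Gata4 and Foxf1, and Foxf1 also lies on chromosome 8. The sum over all 6 was 6.80 to 10.6 CPM in wildtype and 3.42 to 4.09 CPM in Nr6a1-/- cells at d3. It was 7.85 to 18.0 and 2.90 to 5.20 CPM at d4, with ranges that overlapped at d4G (27.9 to 63.7 and 22.3 to 58.7 CPM). The 6 fibroblast feeder markers were higher in sum in Nr6a1-/- cells, with no overlap, at d2 (24.5 to 33.3 against 13.8 to 19.7 CPM in wildtype), at d2.5 (28.8 to 30.5 against 20.2 to 21.9 CPM) and at d3 (58.4 to 72.7 against 45.1 to 51.6 CPM). At d4 they were lower (19.2 to 23.4 against 26.6 to 29.4 CPM), at d4G the ranges overlapped, and Postn was at 2.504 CPM or less throughout. The epiblast markers summed to more in Nr6a1-/- cells, with no overlap, at d2 (3121 to 3203 against 2365 to 2409 CPM), at d2.5 (831 to 872 against 702 to 714 CPM) and at d3 (242 to 265 against 199 to 216 CPM). Of the 7, Pou5f1 was called higher and Zfp42 lower at d2.5 and d3, and 0 were called at d2. Zfp42 lies on chromosome 8, as do Sox1, Irx3 and Irx5. Over all genes 2.86% were called higher and 3.59% lower at d2.5, 4.47% and 6.3% at d3, and 4.07% in either direction at d2. At d4, the comparison that holds replicate 2 of d4 wildtype, 5 were called, all lower in Nr6a1-/- cells, against 9.18% of all genes called lower. The part of these other cells in the levels of T, Sox2, Nkx1-2 and Tbx6 was not tested. Without replicate 2 of d4 wildtype the d4 differences were 0.59 for T, 2.31 for Nkx1-2 and 0.92 for Tbx6, each still called. These values bear only on the epiblast transcripts of that library, not on the other markers given here.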

How the data were processed

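RNA was sequenced from the 3′ end of polyadenylated transcripts in 30 libraries, with a sample index and a molecular identifier added at priming. Per the submitters' processing notes, reads were aligned with STAR to mm10. The counting tool, the annotation, strand use and any collapsing of identifiers are not given in the sources used here. The authors deposited a table of unscaled whole-number counts, with a row for each gene and a column for each library, and 0 columns of per-sample values could not be matched to a sample. They also deposited 5 tables of genes that differed between genotypes, which hold CPM values and the authors' edgeR fold changes, p-values and FDR. Those tables were not used.

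The filter of the study, above 10 counts and above 2 CPM, had to be met by 2 or more libraries of the same group (12149 genes, at least 99.2% of each library's counts). With TMM factors, edgeR 4.0.16 in R 4.3.3 fitted all 10 groups together, leaving 20 residual degrees of freedom. The 17 comparisons were tested with glmQLFit and glmQLFTest, 2-sided, with Benjamini-Hochberg adjustment and a threshold of 0.05. A standard error is the log2 fold change over the root of its F statistic. The fit was tested on simulated data made from the group means. Msgn1 was compared by pooled counts with exact 95% intervals and by exact permutation tests (scipy 1.17.1). A count of 0 was taken to allow 3 counts. Balance and likeness used log2(CPM + 0.5).

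Genes named are the 5, genes of marker lists, and for each of the 5 the 3 genes nearest to it in pattern. Some genes that meet this rule are not reported here. The 5 genes and the lists were chosen with earlier results of these data known. Alternatives were RLE factors, no factors, no filter, DESeq2 1.42.0, only the libraries compared, a replicate block, thinned counts and leaving out each replicate. Replicates differed beyond counting noise (chi-square per gene 1.45 to 6.68 over 30 pairs), but only the labels say that they are separate samples, so p-values measure the spread between these samples, which may be technical. Intervals and limits of pooled counts cover counting error only, whereas intervals from the fit were built from its standard errors.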

Additional observations from a re-analysis of the deposited data

Results flagged for a closer look

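In 4 cases the change of a gene over a step differed between genotypes by a test of the difference itself (quasi-likelihood test in edgeR, Benjamini-Hochberg FDR, 3 replicates per group). For Nkx1-2 the step from d3 to d4 differed by 1.68 on the log2 scale (FDR = 4.72e-06), the gene falling less in Nr6a1-/- cells. In the response to Gdf11, Nkx1-2 differed by -2.18 (FDR = 1.53e-05), T by -1.22 (FDR = 1.54e-06) and Sox2 by -1.24 (FDR = 0.0172). The Nkx1-2 and T differences stayed past the threshold in all 20 alternatives tried for each, and that of Sox2 in 15 of 20.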

How the results depend on the processing

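Of the alternatives, RLE factors and the replicate block changed 0 calls of T, Sox2, Nkx1-2 and Tbx6. Fitting only the libraries compared brought the genotype difference of T from d2.5 to d3 past the threshold (0.46, FDR = 0.0345). The difference of Sox2 in the response to Gdf11 was lost there (-1.23, FDR = 0.0786) and with counts thinned to the smallest library (-1.41, FDR = 0.0665), and leaving out single libraries gave -1.46 to -1.02. Msgn1 at d3 was 1.93 without a filter (FDR = 0.0753). In all other comparisons between genotypes, and in all other tests of a difference between their steps, no call of these 4 genes changed and no direction of a called value reversed. The Tbx6 fall with Gdf11 in wildtype was lost in 8 alternatives (FDR up to 0.163) and the Nkx1-2 step from d2.5 to d3 in Nr6a1-/- cells in 5 (FDR up to 0.187), while that in wildtype passed with only the libraries compared (0.30, FDR = 0.0456).

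The balance difference depended on its genes by construction. Without Sox2 it was -0.36 (d2.5), 0.28 (d3), -1.90 (d4) and 0.072 (Gdf11). When Nkx1-2 was left out it was 0.40, 1.10, 0.73 (reversed) and 1.82 for the same groups. With summed CPM it was 0.22 at d3.

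Replicate numbers were not treated as pairs, although correlations of deviations from means of 3 libraries cannot exclude pairing. Same-numbered libraries of the 2 genotypes correlated at -0.111 to 0.0559 in their deviations from the group means (0 of 15 pairs over 0.1), and 5 of 15 libraries correlated best with their own number. Over the steps 3 of 24 same-numbered pairs were over 0.1 (0.117 and 0.163 for d4 and d4G wildtype, 0.134 for d3 and d4 Nr6a1-/-, each a pair that shares a sample index, as do 3 further pairs at 0.00193 to 0.0244), and in 0 comparisons were all 3. With the replicate block T at d3 was 0.71 and Nkx1-2 at d4 2.45, and calls over all genes moved from 1308 to 1352 at d3 and from 99 to 149 for the genotype difference in the step from d2.5 to d3.

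Counts over all genes depended on depth and on the fit. Thinning took them from 494 to 295 at d2, 784 to 464 at d2.5, 1308 to 766 at d3, 1394 to 915 and 1930 to 1284 from d2.5 to d3 in wildtype and Nr6a1-/- cells, and 2560 to 1620 from d3 to d4 in wildtype. Only the libraries compared took d4 from 2294 to 1398. Single libraries mattered too, the d2 count being 304 and 311 without replicate 1 or 2 of d2 Nr6a1-/- and 306 without replicate 3 of d2 wildtype, the d2.5 count 478 and 492 without replicate 1 or 2 of d2.5 wildtype and 495 without replicate 1 of d2.5 Nr6a1-/-, the d3 count 871 without replicate 3 of d3 wildtype and the d4 count 1487 without replicate 3 of d4 Nr6a1-/-. The genotype differences in the steps ranged from 26 to 317 (74 as reported), 47 to 359 (99), 421 to 1157 (695) and 203 to 823 (323), lowest when replicate 2 of d2 Nr6a1-/- or replicate 1 of d2.5 wildtype was left out and, for the last pair, with thinning. They were highest without a filter for the first pair and without replicate 1 of d4 Nr6a1-/- for the last (1157 and 823). Scaling without factors shifted the median of all genes by at most 0.0412 between genotypes and 0.0929 over the steps, and RLE factors by at most 0.0130 and 0.0244. Without factors the share of calls that were higher went from 33.2% to 44.0% at d2, from 52.3% to 65.9% for d2 to d2.5 in wildtype, from 52.4% to 40.2% for d3 to d4 in Nr6a1-/- cells, and with Gdf11 from 49.8% to 63.2% in wildtype and 46.8% to 59.7% in Nr6a1-/- cells. Of listed genes, presomitic ones higher at d4 went from 11 to 7 with thinning, and at d2.5 from 1 to 0 higher and 2 to 1 lower with only the libraries compared, and 1 was lower at d3 without d3 Nr6a1-/- replicate 3. Neural genes lower went from 3 to 0 at d2 with DESeq2 and to 1 without replicate 1 or 2 of d2 Nr6a1-/- or replicate 2 or 3 of d2 wildtype, 3 to 1 at d3 with thinning, 4 to 2 at d4 in 6 settings (leaving out d4 wildtype replicate 2 or any d4 Nr6a1-/- library among them), 2 to 1 at d4G with thinning or without d4G wildtype replicate 1 and 0 to 2 at d2.5 without d2.5 Nr6a1-/- replicate 2, and higher ones from 2 to 1 at d4 without d4 wildtype replicate 2 or d4 Nr6a1-/- replicate 2 or 3 and 0 to 1 at d4G with the block. Caudal genes lower went from 1 to 0 at d2 and d2.5 with only the libraries compared (at d2 also without d2 Nr6a1-/- replicate 1 or 2), 2 to 1 at d3 with thinning or without d3 Nr6a1-/- replicate 1 or 3 or d3 wildtype replicate 1 and 5 to 3 at d4 without d4 Nr6a1-/- replicate 1.

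Few counts limit Msgn1 at every stage, Tbx6 before d3, T and Nkx1-2 at d2 and Sox2 in d4G Nr6a1-/- cells. The genotype is 1 clone, and d4 wildtype replicate 2 holds epiblast transcripts.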

Other observations

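Among the markers listed beside the 5 genes, Gdf11 lowered most genes of the presomitic list, which includes somite genes, in both genotypes. Of 17 tested, 11 fell and 1 rose (Snai1) in wildtype, and 11 fell and 4 rose (Pcdh8, Snai1, Pdgfra and Cited1) in Nr6a1-/- cells, with median log2 fold changes of -0.95 and -0.94. Over all genes 14.5% were called lower and 14.3% higher in wildtype, and 9.59% lower and 8.45% higher in Nr6a1-/- cells. Genes that fell in both include Hes7, Mesp2, Foxc2, Meox1, Aldh1a2, Lfng, Dll1 and Rspo3. From d3 to d4 without Gdf11, 12 rose in wildtype and 15 in Nr6a1-/- cells, and 0 fell in either, with medians of 1.18 and 2.72, where 9.77% and 13.6% of all genes were called higher. The difference between genotypes in that step was called for Aldh1a2 (3.61, SE 0.336, FDR = 2.94e-09) and for Mesp1, a factor of early mesoderm (5.73, SE 1.61, FDR = 0.0283), at 0.345 CPM in d4 wildtype and 9.71 CPM in d4 Nr6a1-/- cells.

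Neural genes were also followed from d3 to d4. In wildtype Hes5, Pax6, Ncam1 and Irx5 rose and 0 fell, whereas in Nr6a1-/- cells Hes5 and Ncam1 rose and Olig2 and Irx3 fell, where 11.3% and 12.3% of all genes were called lower. The difference between genotypes in this step was called for Irx3 (-2.65, SE 0.603, FDR = 0.00511), Ncam1 (1.77, SE 0.322, FDR = 4.03e-04) and Hes5 (1.93, SE 0.537, FDR = 0.0251). Over the first 12 h of CHIR99021, 12 of 14 caudal progenitor genes were called higher in each genotype, against 13.3% and 12.9% of all genes. The list medians were 4.20 and 4.34, and T and Nkx1-2 rose in the same step.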
